A study of Mus musculus with 24 samples.

Results

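The kainate receptor subunit genes Grik1, Grik2, Grik3, Grik4 and Grik5 and the genes of their auxiliary proteins, Neto1 and Neto2, were followed in the visual cortex of postnatal mice. The 7 genes were taken by symbol from the 23881 rows of the mRNA table, where each has 1 row, and all 7 passed the filter used for testing, a mean of at least 0.5 RPKM over the 12 libraries. RPKM is a read count divided by the length of a gene's exons and by the library's mapped reads, so levels of different genes can be set side by side. The 3 groups compared had 4 libraries each, namely those of wild-type C57BL6J mice at postnatal day 10 (P10-wt), wild-type C57BL6J mice at day 28 (P28-wt) and C57BL6J mice null for miR-132/212 at day 28 (P28-KO). All mice were reared normally and were of both sexes, and the mutants lack the locus in every tissue from the germ line on, so that their difference from wt is not limited to neurons or to cortex. The study counted as many mice as libraries in each group, the labels do not tie libraries to animals, and p-values measure the spread between these libraries.

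Kainate receptors are tetrameric glutamate-gated ion channels. GluK1, GluK2 and GluK3, the products of Grik1, Grik2 and Grik3, can form channels alone, whereas GluK4 and GluK5, the high-affinity subunits encoded by Grik4 and Grik5, reach the surface as working receptors only together with them. Neto1 and Neto2 are membrane proteins that bind the assembled channel and slow its deactivation and desensitization. In cortex, kainate receptors act on both sides of the synapse, where they tune transmitter release and carry slow excitatory currents, and they are found in pyramidal cells and in interneurons.

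The mutants lack 4 mature miRNAs, whose sequences from RefSeq (build GRCm38.p6) are given here because they define the genotype that is compared. Capitals mark the seed, bases 2 to 8, and miR-132-3p and miR-212-3p share theirs.
miR-132-3p: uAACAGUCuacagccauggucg
miR-212-3p: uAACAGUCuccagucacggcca
miR-132-5p: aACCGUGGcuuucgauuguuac
miR-212-5p: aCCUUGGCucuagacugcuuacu
All 4 lie on the plus strand of chromosome 11, where mature miR-132-3p spans chr11:75173723-75173744. The heptamer GACTGTT, which pairs with the shared seed, was in the longest annotated 3' UTR of none of the 7 genes, and it was in 12.3% of the 13116 tested genes with a 3' UTR. The heptamer for miR-212-5p, GCCAAGG, was also in none of the 7 and in 12.2% of those genes. The heptamer for miR-132-5p, CCACGGT, was in 3.21% of them and in 1 of the 7, Grik3. Searches used the transcript strand only. The 3' UTRs ran from 304 bases in Grik1 to 7632 in Grik2. The Grik3 match begins at base 4268 of a 3' UTR of 6082 bases and is shown with its flanks, with the heptamer in capitals, plus strand, chr4:125712348-125712377.
Grik3 3' UTR: ctaaccacttgCCACGGTggaaggggcctt
A match is a description of the sequence and not a measured site.

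The genotype labels were checked on the entries of the deleted locus in the long RNA table. Mir132 was listed at 0 in all 4 P28-KO libraries and at 9.74 to 14.4 RPKM in P28-wt, and Mir212 at 0 against 13.96 to 24.7 RPKM. Excitatory cortical markers were present in every library, with mean Slc17a7 at 272 RPKM in P10-wt, 703 in P28-wt and 602 in P28-KO. On the first principal component of all tested genes, which held 70.9% of the variance, library 103R of P10-wt lay at -79.03 and the other 3 at -56.9 to -55.3. On the second component, library 158R of P28-wt lay at 38.7 and the other 3 at -8.72 to 12.5. Since RPKM values carry no counts of reads, the counting error of a single value is not given.

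Grik5 was the most abundant of the 7 transcripts in all 12 libraries. Its mean at P28-wt, 97.8 RPKM, was above that of 96.8% of the genes tested. In P10-wt it was followed by Neto2, Neto1, Grik3, Grik2, Grik1 and Grik4. In that order the ranges of neighbours did not overlap, except for Grik3 with Grik2, although Grik3 was higher in 4 of 4 libraries, and for Grik1 with Grik4, where Grik1 was higher in 2 of 4. In P28-wt the order was Grik5, Neto1, Neto2, Grik3, Grik2, Grik4 and Grik1. There Neto1 overlapped Neto2, Neto2 overlapped Grik3 and Grik3 overlapped Grik2, so these neighbours could not be ranked beyond their spread, although Neto2 lay above Grik2 in 4 of 4 libraries without overlap. Grik4 lay above Grik1 in 4 of 4 libraries without overlap. The order in P28-KO was the same as in P28-wt, with Grik3 above Grik2 without overlap. Grik1 was the lowest at day 28, at a level above that of 27.9% of the tested genes in P28-wt.

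**Figure D1:**
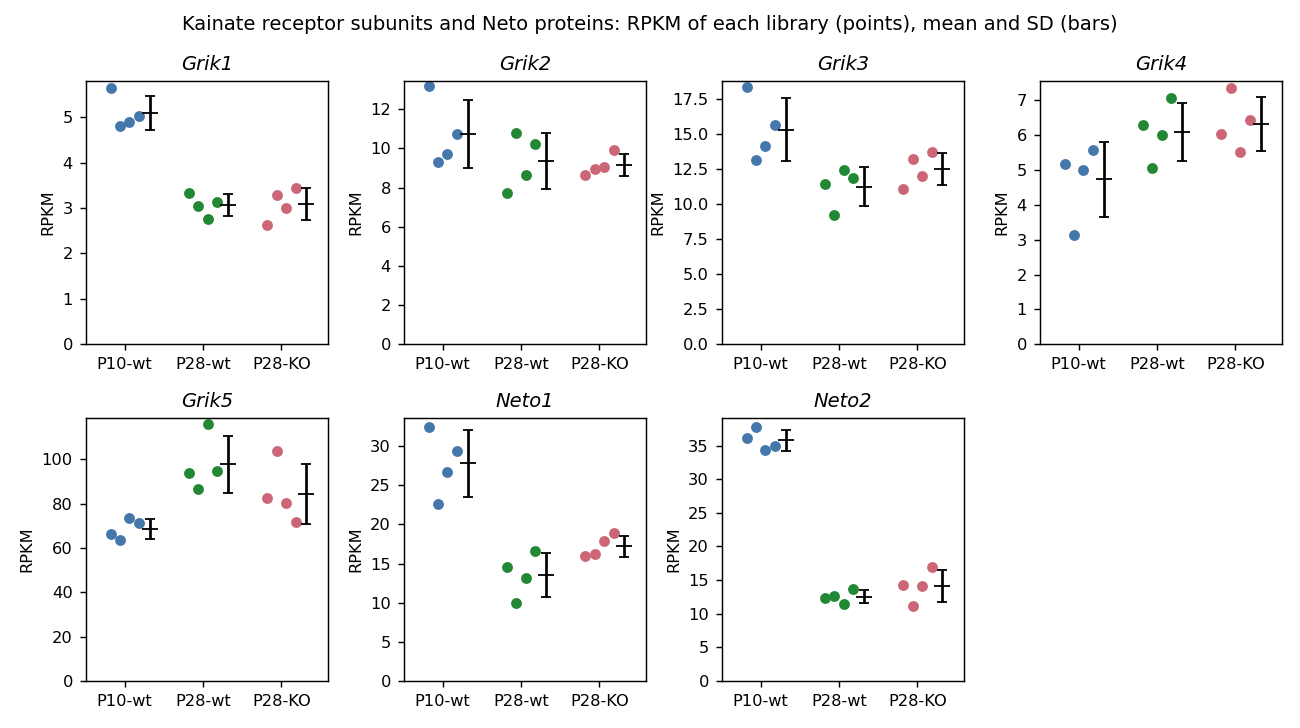
RPKM of the 7 genes in each library (points), with the mean and SD of 4 libraries beside them, in P10-wt, P28-wt and P28-KO, each panel from 0 on its own linear axis. Neto2 falls from 34.3 to 37.8 RPKM in P10-wt to 11.4 to 13.7 in P28-wt, and Grik5 rises from 63.8 to 73.5 to 86.5 to 116.

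The comparison of P28-wt with P10-wt asks which of these transcripts changed while the wild-type visual cortex matured. Both Neto transcripts, Grik1 and Grik3 fell and Grik5 rose, while Grik2 and Grik4 did not pass the test. Tests were made with limma on log2(RPKM + 0.1), and p-values were adjusted over all 13927 genes tested by the method of Benjamini and Hochberg, with calls at an adjusted p under 0.05. In tissue RNA, fewer cells of a type and less RNA per cell cannot be told apart. With 5 of 7 called, the count was near that of genes at large, of which 57.9% were called, 31.2% lower and 26.7% higher. The median log2 fold change of the 7 was -0.44, against -0.05 over all genes tested. In 5 of the 7 the groups did not overlap, as in 54.5% of the genes tested.

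Neto2 had the largest change of the 7. This auxiliary protein also binds KCC2, the chloride exporter of mature neurons. Its RPKM was 36.1, 37.8, 34.3 and 34.9 in P10-wt and 12.3, 12.7, 11.4 and 13.7 in P28-wt. Every P28-wt library lay far below every P10-wt library, and the spread within each group was small. The means were 35.8 ± 1.54 and 12.5 ± 0.954 RPKM (SD, n = 4 each), which is a log2 fold change of -1.51 (SE, the standard error, 0.08, adjusted p = 3.91e-07). By size of its log2 fold change Neto2 stood above 93.4% of the genes tested.

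Neto1, which also associates with NMDA receptors, fell as well, with a wider spread. Its RPKM was 32.5, 22.5, 26.7 and 29.4 in P10-wt and 14.5, 9.98, 13.1 and 16.5 in P28-wt. The groups did not overlap, and the lowest P28-wt value was that of library 158R. The log2 fold change was -1.04 (SE 0.16, adjusted p = 0.000277), and without 158R it was -0.91. The order of the pair changed between the ages, since Neto2 exceeded Neto1 in 4 of 4 libraries in P10-wt and Neto1 exceeded Neto2 in 3 of 4 in P28-wt, with 158R as the exception. Neto1 made up 37.4% to 47.4% of the summed RPKM of the pair in P10-wt and 44.1% to 54.7% in P28-wt, ranges that overlap through 158R.

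Among the subunits that form channels alone, Grik1 and Grik3 fell. Grik1, whose product is the kainate receptor subunit best known from interneurons, was at 5.65, 4.81, 4.90 and 5.04 RPKM in P10-wt and at 3.33, 3.04, 2.76 and 3.13 in P28-wt. The ages were separated without overlap. On the log2 scale Grik1 changed by -0.72 (SE 0.10, adjusted p = 0.000143). Grik3, which encodes a subunit of low glutamate sensitivity, was at 18.3, 13.1, 14.1 and 15.7 RPKM in P10-wt and at 11.5, 9.27, 12.4 and 11.9 in P28-wt. Its groups lay close, the lowest P10-wt library being just above the highest of P28-wt, and the highest P10-wt value was that of library 103R. The log2 fold change was -0.44 (SE 0.12, adjusted p = 0.0112), and without 103R it was -0.35 (adjusted p = 0.025).

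Grik2, the main partner of GluK5 in forebrain receptors, was at 13.2, 9.33, 9.73 and 10.7 RPKM in P10-wt and at 7.71, 10.8, 8.66 and 10.2 in P28-wt. The groups overlapped, with 2 of the 4 P28-wt libraries inside the P10-wt range. Its log2 fold change was -0.20 (95% interval -0.50 to 0.10, adjusted p = 0.232), and it was -0.10 without 103R and -0.11 without 146R.

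Of the high-affinity subunits, Grik5 rose. Its RPKM was 66.2, 63.8, 73.5 and 71.3 in P10-wt and 94.0, 86.5, 116 and 94.6 in P28-wt. All P28-wt libraries lay above all of P10-wt, and the highest was library 152R. The mean rose from 68.7 ± 4.47 to 97.8 ± 12.8 RPKM (SD, n = 4 each), a log2 fold change of 0.50 (SE 0.10, adjusted p = 0.0016). Grik4, whose mRNA is best known from CA3 of the hippocampus, was at 5.18, 3.15, 5.01 and 5.59 RPKM in P10-wt and at 6.29, 5.06, 6.01 and 7.07 in P28-wt. In 3 of 4 P28-wt libraries it was above the P10-wt range, and 158R lay inside it. The log2 fold change was 0.38 (95% interval -0.01 to 0.77, adjusted p = 0.0835), so the test was not passed. Without 158R it was passed (0.47, adjusted p = 0.0485), and without 111R, the lowest library, the value was 0.20 (adjusted p = 0.198).

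**Figure D2:**
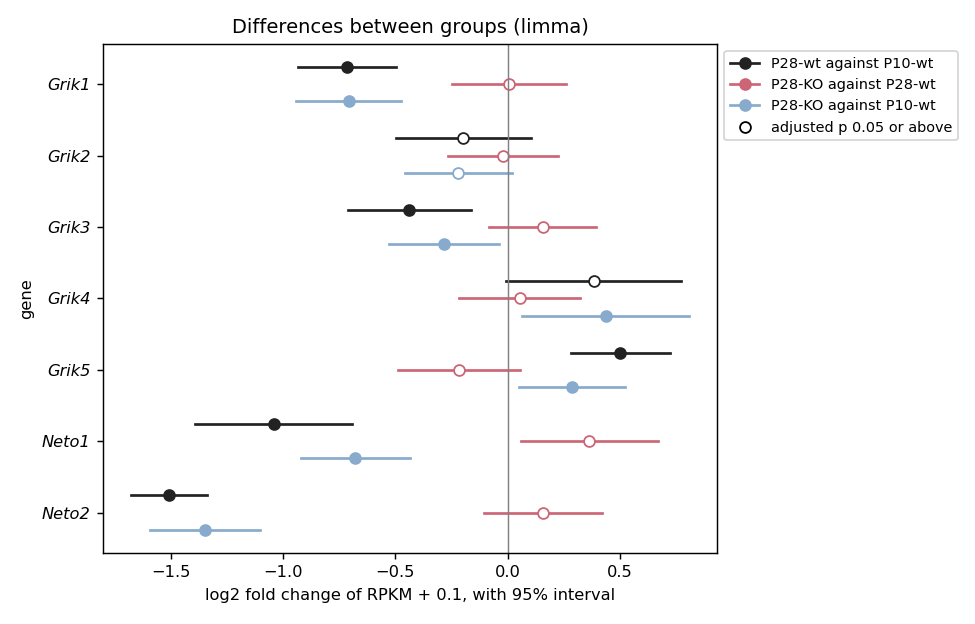
Log2 fold changes of RPKM + 0.1 for the 7 genes in the 3 comparisons, with 95% intervals from limma (4 libraries a group). Open points had an adjusted p of 0.05 or above. All 7 points of P28-KO against P28-wt are open, and the age change is largest for Neto2 (-1.51) and Neto1 (-1.04).

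The makeup of the family moved with these changes in wild type. The summed RPKM of Grik1 to Grik5 was 94.2 to 109 in P10-wt and 115 to 146 in P28-wt, without overlap. Grik5 held 61.0% to 68.5% of that sum in P10-wt and 74.6% to 79.6% in P28-wt. Grik1, Grik2 and Grik3 together fell from 26.8% to 34.2% of the sum in P10-wt to 16.3% to 20.2% in P28-wt. The share of Grik4 overlapped between the ages, at 3.34% to 5.16% and 4.12% to 5.57%. Summed Neto RPKM per 100 RPKM of the 5 subunits was 56.8 to 64.1 in P10-wt and 16.8 to 23.9 in P28-wt. Set against Grik1, Grik2 and Grik3 alone, Neto RPKM was 185 to 221 per 100 in P10-wt and 98.0 to 120 in P28-wt, so the Neto transcripts also fell relative to those subunits in every library. These shares are of mRNA, and they are given without a test because they sum over genes chosen with results of these data known. The shares and the Neto ratios were taken from RPKM as deposited. The dependence on GC content and transcript length, given below for the fold changes, was not taken out of them.

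**Figure D3:**
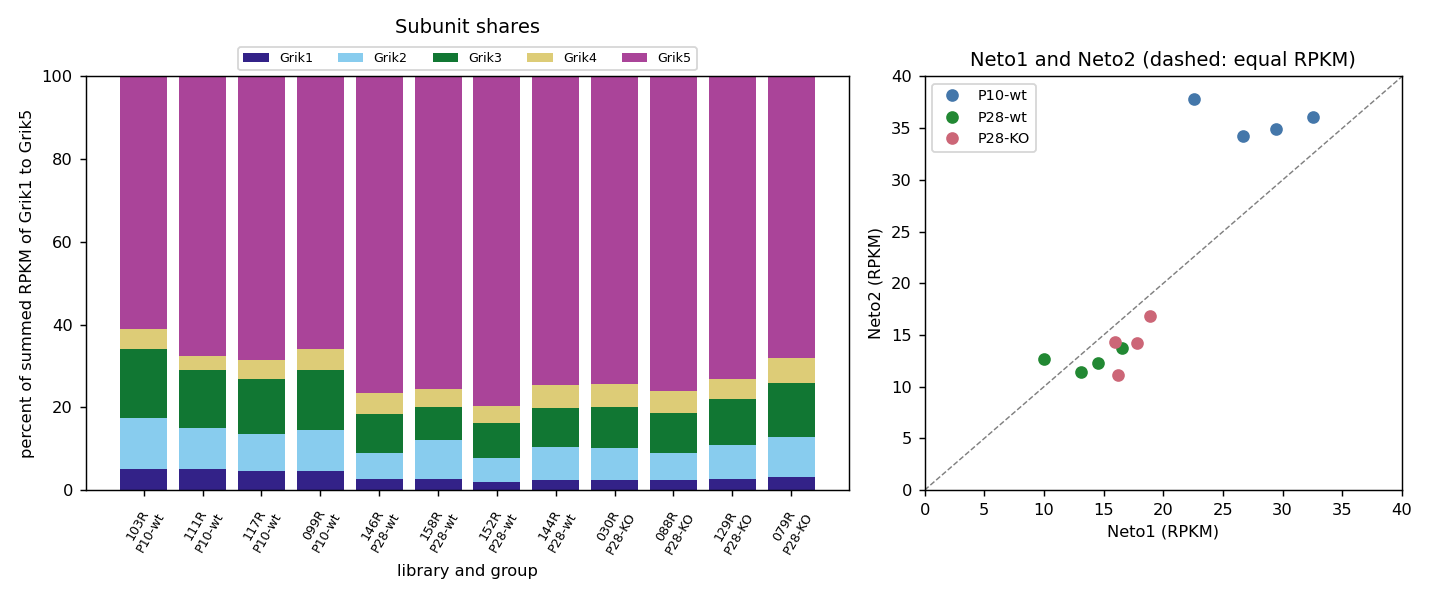
Left, percent of the summed RPKM of Grik1 to Grik5 held by each subunit in each of the 12 libraries. Right, Neto2 against Neto1 in RPKM, 1 point a library, with a dashed line of equal RPKM. The share of Grik5 is 61.0% to 68.5% in P10-wt, 74.6% to 79.6% in P28-wt and 68.1% to 76.0% in P28-KO. All P10-wt points lie above the dashed line.

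The comparison of P28-KO with P28-wt asks which of these transcripts differed at day 28 without miR-132 and miR-212. None of the 7 passed an adjusted p under 0.05 from limma, and 1, Neto1, had an unadjusted p under 0.05. At large, 0.0144% of the 13927 genes were called, namely Mir132 and Mir212 themselves, and 12.4% had an unadjusted p under 0.05, 4.27% higher and 8.11% lower. By a regularized test on RPKM, with the same adjusted p threshold, 2 genes were called higher and 3 lower, with 0 of the 7 among them. The study made its calls on a posterior probability of differential expression, which was not computed here, so these counts are not those of its rule. No gene of the 7 was separated between the groups, against 5.49% of the genes tested.

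Neto1 had the largest log2 fold change of the 7 in this comparison. It was at 16.0, 16.2, 17.8 and 18.8 RPKM in P28-KO, beside the P28-wt values of 14.5, 9.98, 13.1 and 16.5 given above. The groups, at 17.2 ± 1.37 and 13.5 ± 2.76 RPKM (SD, n = 4 each), overlapped, with 2 P28-KO libraries above all of P28-wt. The log2 fold change was 0.36 (95% interval 0.06 to 0.67, adjusted p = 0.394, limma), and without library 158R, the lowest of P28-wt, it was 0.23 (adjusted p = 0.462).

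Neto2 was at 14.3, 11.1, 14.2 and 16.9 RPKM in P28-KO, with 3 libraries above and 1 below the whole P28-wt range. Its log2 fold change was 0.16 (95% interval -0.11 to 0.42), and it was 0.07 without 079R and 0.27 without 088R. Grik5 was at 82.5, 104, 80.3 and 71.6 RPKM in P28-KO, with 3 of 4 libraries below all of P28-wt and 088R inside their range. Its log2 fold change was -0.22 (95% interval -0.49 to 0.06), and it was -0.32 without 088R (adjusted p = 0.168), -0.13 without 152R and -0.14 without 079R. These intervals leave room for differences of either sign in both genes.

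Grik3, the gene with the CCACGGT heptamer printed above, was at 11.1, 13.2, 12.02 and 13.7 RPKM in P28-KO, and 2 of these libraries lay inside the P28-wt range. The log2 fold change was 0.16 (95% interval -0.08 to 0.39, adjusted p = 0.533). Without 158R, in which Grik3 was lowest, it was 0.07. Grik1, Grik2 and Grik4 had log2 fold changes of 0.01 (95% interval -0.25 to 0.26), -0.02 (-0.27 to 0.23) and 0.05 (-0.22 to 0.32). Grik2 was at 8.63, 8.94, 9.08 and 9.94 RPKM in P28-KO, all inside the P28-wt range.

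P28-KO was also compared with P10-wt, the third pair of groups of the study. It shares its libraries with both comparisons above, so its values stand beside theirs and are no further evidence. Of the 7 genes, 4 were lower and 2 were higher, where 58.2% of the 13927 genes were called, 33.6% lower and 24.6% higher. Neto2 had a log2 fold change of -1.35 (SE 0.11, adjusted p = 4.15e-06), Grik1 of -0.71 (SE 0.11, adjusted p = 0.000222) and Neto1 of -0.68 (SE 0.11, adjusted p = 0.000389). These 3 were without overlap, as were 54.7% of the genes tested.

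The calls of the other 3 were near the threshold. Grik3 was lower by a log2 fold change of -0.28 (adjusted p = 0.0462), and Grik4 and Grik5 were higher by 0.44 (adjusted p = 0.0442) and 0.29 (adjusted p = 0.0398). Each of them overlapped between the groups. With 1 library left out in turn, Grik3 passed in 3 of 8 fits (without 111R, 117R or 079R), Grik4 in 3 (without 103R, 099R or 129R) and Grik5 in 2 (without 117R or 079R). The log2 fold change of Grik4 was 0.26 without 111R, where it was lowest, and that of Grik5 was 0.18 without 088R, where it was highest in P28-KO. Grik2 did not pass, with a log2 fold change of -0.22 (95% interval -0.46 to 0.02), and it was -0.12 without 103R.

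GC content of the transcript moved with the fold changes of all genes and differs widely among the 7. Across the 13873 tested genes with an annotated transcript, which are not independent, Pearson's r between GC content and log2 fold change was 0.216 for age and -0.328 for the mutant at day 28. The longest RefSeq transcript has 62.4% GC in Grik5, 55.6% in Grik4, 54.2% in Grik3 and 47.8% in Grik1, against 40.3% in Neto1, 37.6% in Grik2 and 36.3% in Neto2. When the dependence on GC and on length of the transcript was taken out of each library, the age changes were smaller but kept their calls in Neto2 (-1.18, adjusted p = 1.75e-07), Neto1 (-0.67, adjusted p = 0.00206), Grik1 (-0.63, adjusted p = 0.000229), Grik5 (0.30, adjusted p = 0.00147) and Grik3 (-0.25, adjusted p = 0.0309). For Grik2 the sign of the age change turned, to 0.27 (adjusted p = 0.195), and Grik4 went to 0.22 (adjusted p = 0.272). Between P28-KO and P10-wt the value of Grik2 went to -0.04, of Grik3 to -0.16 and of Grik4 to 0.33, none of them called, while Neto2 (-1.18), Grik1 (-0.65), Neto1 (-0.49) and Grik5 (0.20) kept their calls. In the mutant comparison at day 28 the log2 fold change of Neto1 went to 0.19, of Neto2 to 0.00, of Grik5 to -0.10 and of Grik2 to -0.31, with none of the 7 called.

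**Figure D4:**
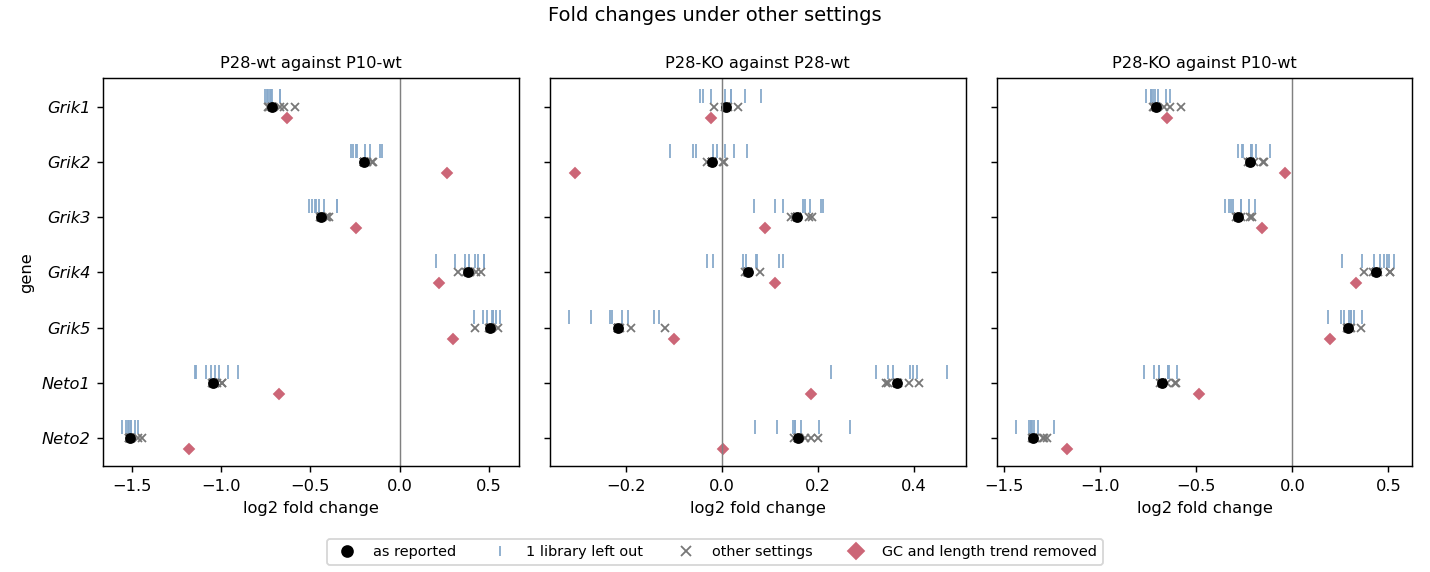
Log2 fold changes of the 7 genes as reported (black), with 1 library left out (blue bars), with the dependence on GC and length taken out (red diamonds) and under the other settings (grey crosses), in the 3 comparisons, each panel on its own axis. Grik2 crosses 0 in the age comparison when that dependence is taken out, from -0.20 to 0.27.

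Markers of other cell types also moved with age. The summed RPKM of 6 oligodendrocyte markers was 22.6 to 96.5 in P10-wt and 1627 to 2341 in P28-wt, and all 6 rose. That of 12 inhibitory neuron markers was 333 to 437 and 801 to 1169, with 7 higher and 2 lower. For 6 striatal markers it was 30.7 to 49.2 and 81.0 to 91.8, with 1 higher and 4 lower. Excitatory neuron markers summed to 407 to 483 and 785 to 926, with 2 of 8 higher and 3 lower, and those of microglia to 37.3 to 66.0 and 108 to 113, with 6 of 6 higher. The sum of 6 thalamic markers was lower at day 28 without overlap, at 22.4 to 31.9 and 13.2 to 17.3, with 1 higher and 2 lower of the 5 tested. The sums overlapped between the ages for the remaining lists, although single markers in each were called. Those of astrocytes were 217 to 265 and 233 to 259, with 2 of 6 markers higher and 1 lower. For oligodendrocyte precursors they were 106 to 122 and 101 to 110, with 1 of 6 higher and 3 lower. Endothelial cells had 59.9 to 72.5 and 59.7 to 79.3, with 1 of 6 higher and 2 lower. Choroid plexus had 1.47 to 2.53 and 1.48 to 2.37, with 1 higher and 1 lower of the 2 tested. Hippocampus, which expresses Grik4, had 72.3 to 100.4 and 70.6 to 81.5, with 0 higher and 2 lower of the 5 tested. Of the markers listed, the thalamic gene Gbx2 was at 0 in 2 libraries of P10-wt, 4 of P28-wt and 3 of P28-KO, Opalin of oligodendrocytes in 2 of P10-wt, Folr1 of choroid plexus in 2 of P28-wt and 2 of P28-KO, and Ttr in 1 of P10-wt. Between P28-wt and P28-KO the oligodendrocyte sum was 1627 to 2341 against 1202 to 1548, without overlap. The part of cell makeup in the changes of the 7 genes was not tested.

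Transcripts of proteins that bind, anchor, carry, edit or modify kainate receptors changed in both directions with age. Of 37 listed partners and regulators, 13 rose, 12 fell and 12 did not pass between P10-wt and P28-wt, where 57.9% of all genes were called, with a median log2 fold change of 0.02 against -0.05 over all genes. Snap25, a SNARE protein reported to bind GluK5, rose from 355 ± 59.1 to 1073 ± 99.4 RPKM (SD, n = 4 each). C1ql3, one of the secreted C1q-like proteins that gather kainate receptors at mossy fibre synapses, rose from 11.1 ± 2.20 to 33.5 ± 4.68 RPKM, and Kif17, the kinesin that carries GluK5-containing and other receptors along dendrites, from 3.50 ± 0.511 to 5.91 ± 0.324. The smallest p among those that fell was that of Grip1, a PDZ scaffold, which went from 7.98 ± 1.20 to 2.62 ± 0.349 RPKM, with Cask, a membrane-associated scaffold, at a log2 fold change of -0.76 and Gnao1, a G protein subunit, at -0.59. In P28-KO against P28-wt none of the 37 was called by limma and 2 had an unadjusted p under 0.05. In P28-KO against P10-wt, 10 were higher and 13 lower, where 58.2% of all genes were called. C1ql3 (1.75), Snap25 (1.47) and the RNA-editing enzyme gene Adar (0.49) had the smallest p of the higher ones, and Ywhaq (-0.76), Grip1 (-1.40) and Dpysl2 (-0.78) of the lower ones.

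The genes whose log2(RPKM + 0.1) ran most closely with each of the 7 were picked by Pearson's r over the 12 libraries among the 12699 genes whose mean was 1 RPKM or more. They share libraries and, for most, the step between the ages. For Neto2 they were Azin1 (r = 0.996), Ireb2 (0.995) and Atxn7l3b (0.995), and for Neto1 Trpc5 (0.986), Ndst1 and Nedd9 (0.985 each). For Grik1 they were Sncaip (0.984), Gnptab (0.983) and Fastkd1 (0.981), and for Grik3 Zc3h4, Ift140 (0.948 each) and Cachd1 (0.941). For Grik5 they were Bcan (0.981), Pitpnm1 (0.976) and Fbxw4 (0.972). The closest genes ran less near to Grik2, with Reps1 at 0.928, Taf1a and Wsb1 following, and to Grik4, with Slc27a2 at 0.925, Cabp7 and Rapgef3 following. Within the 8 libraries of day 28 alone, r with the first gene named was 0.979 for Neto1, 0.972 for Grik5 and 0.924 for Neto2. It was 0.865 for Grik2, 0.84 for Grik3, 0.815 for Grik1 and 0.736 for Grik4. Among the 7 themselves, over all 12 libraries, r was highest for Grik1 with Neto2 (0.935) and most negative for Grik5 with Neto2 (-0.848).

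By the table the genes lie on chromosome 16 from 87895897 to 88290258 (Grik1), chromosome 10 from 49099463 to 49788754 (Grik2), chromosome 4 from 125490831 to 125714173 (Grik3), chromosome 9 from 42520412 to 42944371 (Grik4) and chromosome 7 from 25009851 to 25072369 (Grik5), and on chromosome 18 from 86394952 to 86501897 (Neto1) and chromosome 8 from 85636588 to 85691009 (Neto2), in mm10. Each row joins all exons of a gene, so splice forms of Grik1 and Grik2 were not separated. The library kit does not mark strand, and exons of Grik1, Grik4, Grik5 and Neto2 share bases with annotated genes on the other strand (Zfp574 for Grik5). For these 4 genes, reads of the partner cannot be told apart where the exons overlap.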

How the data were processed

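The 12 mRNA libraries of the 3 groups were used, and the small RNA libraries were not analysed here. The authors aligned paired reads to mm10 with ELAND (the submitters' processing notes also list CASAVA 1.8.2, SAMtools 0.1.19 and Bowtie 0.12.8), kept reads placed uniquely on RefSeq exons and junctions, and deposited 1 RPKM value per gene and library. Column names ended in the library's number, which set its sample. From these values limma 3.58.1 in R 4.3.3 was run on log2(RPKM + 0.1), 1 pair of groups at a time as in the study, with its variance prior following mean expression. The 13927 genes with 0.5 RPKM or more on average entered. Intervals are at 95%. A regularized test after the study's was built with a window of 101 genes and a confidence of 10, and its p-values were adjusted as for limma. GC content, length and 3' UTRs came from curated RefSeq transcripts of GRCm38.p6, matched by symbol (22590) or older symbol (1143). Figures were drawn in Python 3.11.15 with matplotlib 3.10.9. The main limma test and the regularized test were first tried on simulated data, and the other alternative settings were not. The genes, the lists and the tests were chosen with earlier results of these data known. All 7 genes, the 3 higher and 3 lower partners with the smallest p among those called, and the 3 genes most like each member are named.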

Additional observations from a re-analysis of the deposited data

How the results depend on the processing

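The age calls of Neto2, Neto1, Grik1, Grik3 and Grik5 kept their direction and their side of the threshold under every alternative run, including each library left out. Grik4 passed in the age comparison under quantile normalization (0.45), the regularized test (0.37) and the replicate block (0.38, adjusted p = 0.0172), which makes 2 genes higher under each, and it lay between 0.20 and 0.47 with 1 library left out. With the GC and length trend removed, Grik4 was 0.22 (adjusted p = 0.272) and Grik2 turned to 0.27. With 1 library left out, 1 to 2 of the 7 were higher with age and 4 were lower in each fit.

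Between P28-KO and P28-wt no setting called any of the 7. Signs near 0 turned for Grik1 (-0.0173 under quantile normalization and -0.0230 with the trend removed, -0.0456 to 0.0811 with 1 library left out) and Grik2 (0.00464 under median-ratio scaling and 0.00151 under quantile normalization, -0.109 to 0.0520 with 1 left out), and Grik4 ran from -0.0316 to 0.127 with 1 left out. The regularized test called 2 genes higher of all tested, where limma called 0.

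Between P28-KO and P10-wt, Grik3 missed the threshold without a filter and in 1 fit of all libraries (-0.28 in both), under median-ratio scaling (-0.21), quantile normalization (-0.22), the trend removed (-0.16) and the replicate block (-0.28), and with 1 library left out it lay between -0.35 and -0.19. Grik4 missed it without a filter and with the block (0.44 in both) and with the trend removed (0.33), and lay between 0.26 and 0.53 with 1 left out. Grik5 missed it without a filter and with the block (0.29 in both), and lay between 0.18 and 0.36 with 1 left out. Hence 0 genes were higher without a filter and with the block, 1 with the trend removed, and 0 to 1 with 1 library left out. The cause was not tested.

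The column names carry a number from 1 to 4 in each group. For libraries with the same number, the correlation of their deviations ran from -0.0485 to 0.114 in the age comparison. It ran from -0.0906 to 0.281 in the mutant comparison at day 28 and from -0.156 to -0.0325 between P28-KO and P10-wt. For libraries with different numbers it ran from -0.119 to 0.0954, from -0.214 to 0.194 and from -0.0904 to 0.104. The ranges overlapped in each comparison, so these values do not settle whether the numbers pair the libraries. Libraries with the same number share only that number, so the replicate block is no paired analysis. It called 3625 genes higher and 4244 lower with age. The number of libraries limits what small differences can be seen, and read numbers per library were not used here.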
